A study of Mus musculus with 8 samples.

Results

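The genes examined here encode the proteins that detect DNA breaks and stalled replication forks, halt the cell cycle and repair the lesion by homologous recombination or the Fanconi anemia pathway. They were read in common myeloid progenitors (CMPs), bone marrow cells that give rise to the myeloid lineages, from young and old mice. The members were chosen by name, as all non-control probes on the array whose gene name is on a list of 47 genes. Of these names 46 were on the array, out of 34797 gene names in all, with 66 probes and 84 spots. The name Claspn was not among the gene names of the array, which holds that gene as Clspn. All mice were untreated wildtype C57BL/6J animals, aged 2 to 3 months in the young group (4 arrays, replicates 3 to 6) and 22 to 24 months in the old group (4 arrays, replicates 2 to 5). CMPs were sorted as lineage-negative, cKit+, Sca-1-, CD34+, FcγR low cells. No damaging agent was applied, so the arrays show mRNA levels without induced damage and not the response to such an agent. The study asked how age alters the response of hematopoietic cells to bulky DNA lesions. It describes these lesions as the substrate of nucleotide excision repair, which is not a role covered by the 47 genes. The list bears on the checkpoint part of that response, and adds genes of recombination and the Fanconi pathway.

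As background, the kinase ATR is recruited to single-stranded DNA by its partner ATRIP and is switched on by TOPBP1, which works together with the 9-1-1 clamp. ATR then phosphorylates the effector kinase CHK1, while ATM is recruited to double-strand breaks by the MRE11-RAD50-NBN complex and phosphorylates CHK2. The Fanconi core complex attaches ubiquitin to FANCD2 and FANCI at crosslinked DNA, and BRCA1, BARD1, PALB2 and BRCA2 guide the strand exchange by which homologous recombination copies the intact sister. Much of this regulation acts on the proteins, by phosphorylation and ubiquitination, and is not visible on an expression array. Several of these genes are also expressed most in cycling cells, and blood-forming progenitors cycle rapidly.

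Each value below is the log2 intensity of a probe minus the array's 75th percentile, so a difference of 1 is 2-fold. A difference between ages is given as old minus young on this scale, fitted with limma, with its standard error (SE). Values of different probes are not comparable with each other as levels. A gene with several probes is represented by its brightest tested probe. Across the arrays the 75th percentile lay between 352 and 565 intensity units in young and between 290 and 518 in old mice, and between 55.6% and 63.2% of all probes were well above background, with no saturated spot among them. All 8 arrays showed 45 of the 46 genes well above background. The exception was Dmc1, the strand exchange protein of meiosis, which was above background on 3 young and 2 old arrays. The gate markers Kit and Cd34 were detected on all arrays, and so was Ly6a, which encodes Sca-1 and for which the cells had been sorted as negative and which had a lower mean in old mice (-0.73 on the log2 scale, limma adjusted p = 0.414).

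The probes are 60-mers that each match the sequence of 1 stretch of a transcript, and a few are printed because the results below turn on them. Atr had the smallest p and Chek2 the highest mean difference. Atm is given by the probe printed 10 times on each array, Fancd2 had the closest likeness to S phase genes, Brip1 followed the position measure described further below, and the Brca1 probe is placed by the files over 4037 bases of the genome and so crosses an intron. The sequences run 5′ to 3′ as the files give them, with coordinates of the mouse build mm9.
Atr, chr9:95851956-95852015, plus strand: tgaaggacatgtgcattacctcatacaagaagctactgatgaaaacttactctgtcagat
Chek2, chr5:111294547-111294606, plus strand: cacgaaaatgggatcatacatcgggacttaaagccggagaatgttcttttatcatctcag
Atm, chr9:53256167-53256226, minus strand: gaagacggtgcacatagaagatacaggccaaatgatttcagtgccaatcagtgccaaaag
Fancd2, chr6:113541170-113541229, plus strand: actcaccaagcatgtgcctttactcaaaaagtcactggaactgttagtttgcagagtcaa
Brip1, chr11:86011372-86011431, minus strand: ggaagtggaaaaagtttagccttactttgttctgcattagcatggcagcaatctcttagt
Brca1, chr11:101359283-101363319, minus strand: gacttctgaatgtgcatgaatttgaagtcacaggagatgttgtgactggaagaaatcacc

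No gene of the group passed the test between young and old CMPs. Of the 46 genes, 0 were called at an adjusted p under 0.05 and at least 1.5-fold (limma, Benjamini-Hochberg over all tested probes), where 0.207% of all 23155 tested genes were (0.19% higher and 0.0173% lower in old mice), and the smallest adjusted p was 0.804. At an unadjusted p under 0.05 the count was also 0 of 46, where 6.62% of all tested genes passed (3.96% higher and 2.66% lower). By mean, 31 of the 46 genes (67.4%) were lower in old mice and 15 were higher, against 52.4% lower among all tested genes. The median log2 fold change, old minus young, was -0.13 for these genes and -0.01 for all tested genes. The individual values ran from -0.50 to 0.28, or from 0.707-fold to 1.22-fold. Young and old arrays did not overlap for 2 genes, both lower in old mice (4.35%), while 4.86% of all tested genes did not overlap, 1.66% with old lower and 3.2% with old higher.

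The spread sets what such a comparison can show. Within an age the arrays of these genes had a median SD of 0.28 in young and 0.24 in old mice, against 0.32 and 0.30 over all tested genes. The median 95% interval of a gene reached 0.46 log2 units to either side of its estimate. For 42 of the 46 genes the interval left out a 2-fold difference in either direction. A level 1.5-fold higher in old mice lay outside the interval of 35 genes and one 1.5-fold lower outside that of 23, and 14 genes met both conditions. The lowest interval bound was -1.23, for Wrn, and the highest 0.94, for Chek2.

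**Figure D1:**
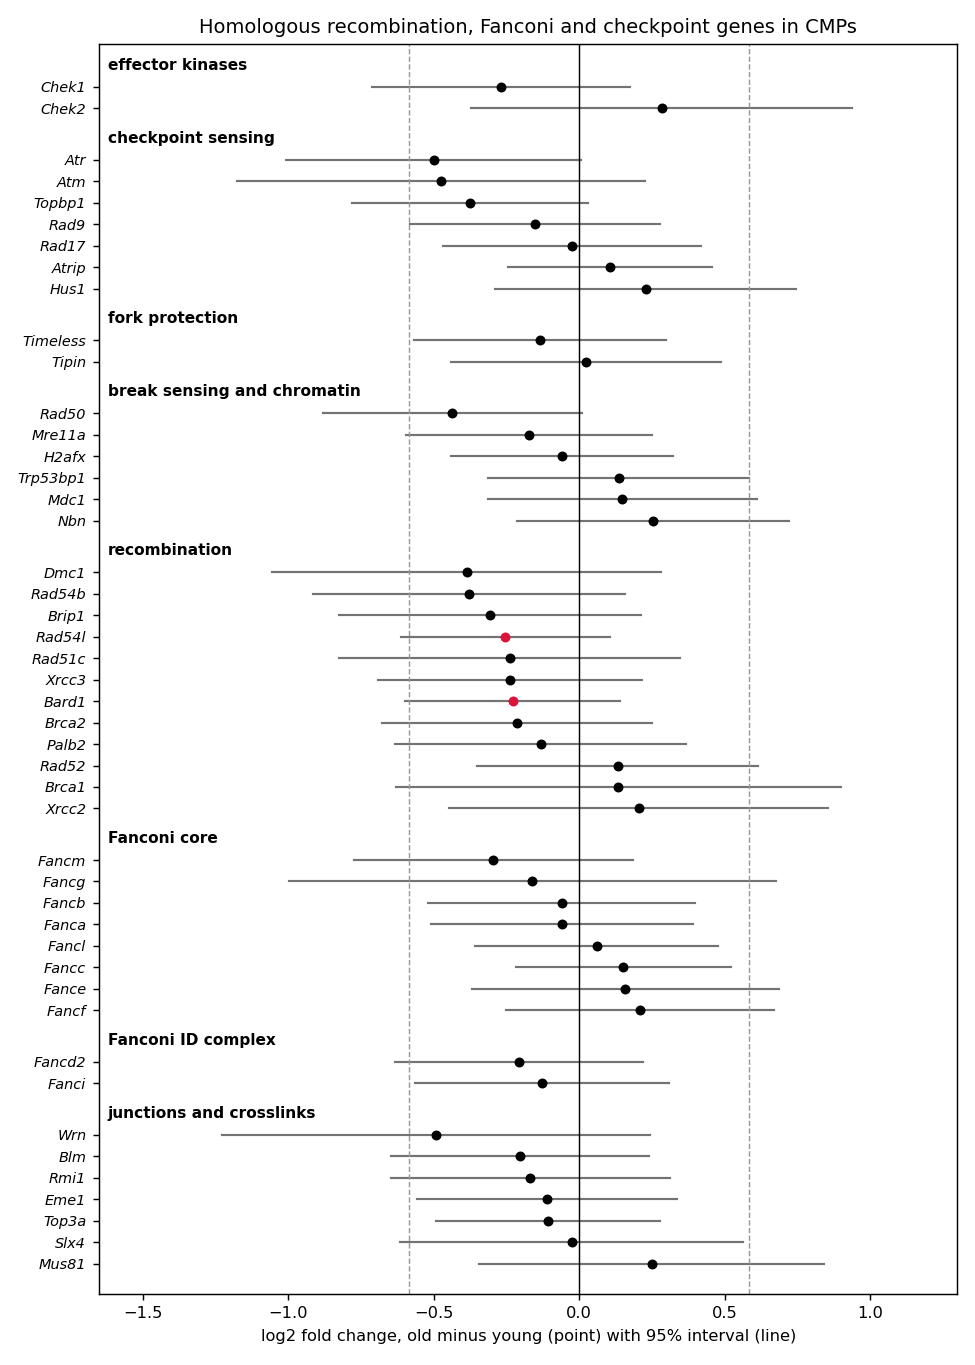
Log2 fold change, old minus young, of the 46 genes by role. Points are limma estimates, lines their 95% intervals, dashed lines mark 1.5-fold, and red points are the 2 genes whose young and old arrays did not overlap (Rad54l and Bard1). All intervals cross 0, and those of Atr and Rad50 do so by 0.01.

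Chek1 and Chek2, the effector kinases, had mean differences of opposite sign. Chek1 was measured by a probe on the minus strand of chr9:36516068-36516127. Its young arrays, replicates 3 to 6, gave -2.55, -2.44, -2.70 and -2.42, and its old arrays, replicates 2 to 5, gave -3.01, -2.94, -2.33 and -2.90. Old replicates 2, 3 and 5 lay below every young array, and old replicate 4 lay above all of them. The means were -2.53 ± 0.13 (SD, n = 4) for young and -2.80 ± 0.31 (SD, n = 4) for old arrays, a difference of -0.27 (SE 0.20, 95% interval -0.71 to 0.18, limma adjusted p = 0.998). Without old replicate 4 the difference was -0.42, with an unadjusted p of 0.0397 and an adjusted p of 0.488 in the limma fit. The kinase Chek2 gave -1.44, -1.17, -0.73 and -1.27 in young and -0.47, -0.78, -1.70 and -0.53 in old mice. Here old replicate 4 was the lowest of the 8 arrays and old replicates 2 and 5 were the highest, so that the arrays overlapped. The log2 fold change of Chek2 was 0.28 (SE 0.29, 95% interval -0.37 to 0.94, limma adjusted p = 0.998). Without old replicate 4 it was 0.56, with an unadjusted p of 0.0320 and an adjusted p of 0.464 in the limma fit, where 9.70% of all tested genes had an unadjusted p under 0.05.

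Among the 7 genes of checkpoint sensing, 5 had a lower mean in old mice, and the 3 smallest p-values of the whole group included those of Atr and Topbp1. Atr, the kinase that answers stalled forks, gave 1.90, 1.71, 1.02 and 1.32 in young and 0.76, 0.99, 1.23 and 0.97 in old mice. Young replicates 3, 4 and 6 stood above all old arrays, while young replicate 5 lay inside the old range. The mean was 1.49 ± 0.39 (SD, n = 4) for young and 0.99 ± 0.20 (SD, n = 4) for old arrays, a difference of -0.50 (SE 0.23, 95% interval -1.01 to 0.01). The unadjusted p was 0.0531 and the adjusted p 0.804 (limma), and the two-sided exact permutation test gave p = 0.0571. Leaving out each array in turn gave -0.66 to -0.36. A further Atr probe, at chr9:95804322-95804381, had a log2 fold change of -0.17 (unadjusted p = 0.619 in limma).

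Atm, the kinase of double-strand breaks, gave -0.74, -0.68, -0.21 and 0.39 in young and -1.18, -1.01, -0.84 and -0.11 in old mice at its brightest probe, chr9:53245871-53245930 on the minus strand. The arrays of both ages were widely spread and overlapped, with SDs of 0.52 and 0.47 (n = 4 each). The difference came to -0.48 (SE 0.31, 95% interval -1.18 to 0.23, limma adjusted p = 0.998). Topbp1, which activates ATR, was chosen after its values were seen and gave 2.11, 2.49, 2.23 and 2.37 in young and 1.85, 2.14, 1.67 and 2.05 in old mice. The ranges overlapped by 1 array, old replicate 3, which lay just above young replicate 3. The difference was -0.37 (SE 0.18, unadjusted p = 0.0665, limma adjusted p = 0.863). Of the clamp and its loader, Rad9 was at -0.15, Hus1 at 0.23 and Rad17 at -0.02, and the ATR partner Atrip was at 0.10. The 4 old arrays of Atrip spanned only 3.17 to 3.26, and they lay inside the young range of 2.99 to 3.28.

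The Atm probe printed 10 times per array gave a spread among spots beside that among arrays. The spots of 1 array had a median SD of 0.127 for this probe and 0.088 for the Rad52 probe, which was also printed 10 times. The array means of the Atm probe were -1.72, -1.64, -1.43 and -1.57 in young and -3.32, -2.60, -1.17 and -1.38 in old mice. Old replicates 2 and 3 lay far below the other 6 arrays and old replicates 4 and 5 above every young array, so the SD was 0.12 among young and 1.02 among old mice. The log2 fold change at this probe was -0.52, with an adjusted p of 0.998 (limma). Rad52, which anneals single strands, had array means of -0.04, -0.20, -0.60 and -0.58 in young and 0.08, -0.04, -0.51 and -0.42 in old mice. In both ages its values formed a higher and a lower pair, and its log2 fold change was 0.13 (limma adjusted p = 0.998). Averaging 8 to 10 spots left a median standard error per array of 0.0403 for Atm and 0.0285 for Rad52. The SD among the array means was 0.12 in young and 1.02 in old mice for Atm, and 0.28 and 0.29 for Rad52.

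**Figure D2:**
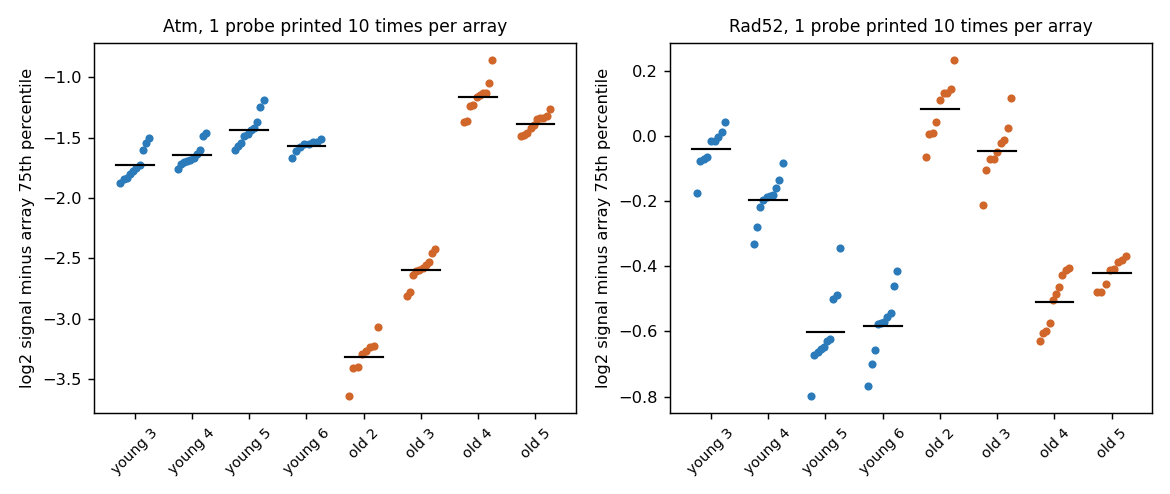
Scaled log2 signal of each spot of the Atm and Rad52 probes that were printed 10 times per array, with young arrays in blue and old in orange. Points are spots kept after outlier marks, 8 to 10 per array, and lines their mean. Atm spots of old replicates 2 and 3 form separate clouds near -3.32 and -2.60, while the other 6 arrays lie between -1.72 and -1.17.

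Of the 6 genes that sense breaks or mark the chromatin around them, 3 had a lower and 3 a higher mean in old mice. Rad50, the coiled-coil subunit of the MRE11 complex, gave 1.11, 1.06, 0.69 and 0.51 in young and 0.15, 0.47, 0.46 and 0.54 in old mice (chr11:53463096-53463155, minus strand). Young replicates 3, 4 and 5 lay above all old arrays, and young replicate 6 lay inside the old range. Old minus young gave -0.44 (SE 0.20, 95% interval -0.88 to 0.01, limma adjusted p = 0.806), and the exact permutation test gave p = 0.0571. Its further probe had a log2 fold change of -0.23. The other subunits of the complex lay at -0.17 for Mre11a and 0.25 for Nbn, so the mean differences of the 3 subunits did not share a sign. The histone H2afx lay at -0.06, and the scaffold proteins Mdc1 and Trp53bp1 at 0.15 and 0.14. Timeless, which with Tipin travels with the fork and helps CHK1 activation, gave 2.67, 3.35, 2.87 and 3.05 in young and 2.99, 2.86, 2.67 and 2.90 in old mice. The difference was -0.13 (SE 0.19, limma adjusted p = 0.998), with old arrays inside or at the edge of the young range. A further Timeless probe, placed just downstream on the transcript, gave -0.48 (unadjusted p = 0.0568, limma adjusted p = 0.815), the widest disagreement between probes of 1 gene in the group. Tipin lay at 0.02.

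**Figure D3:**
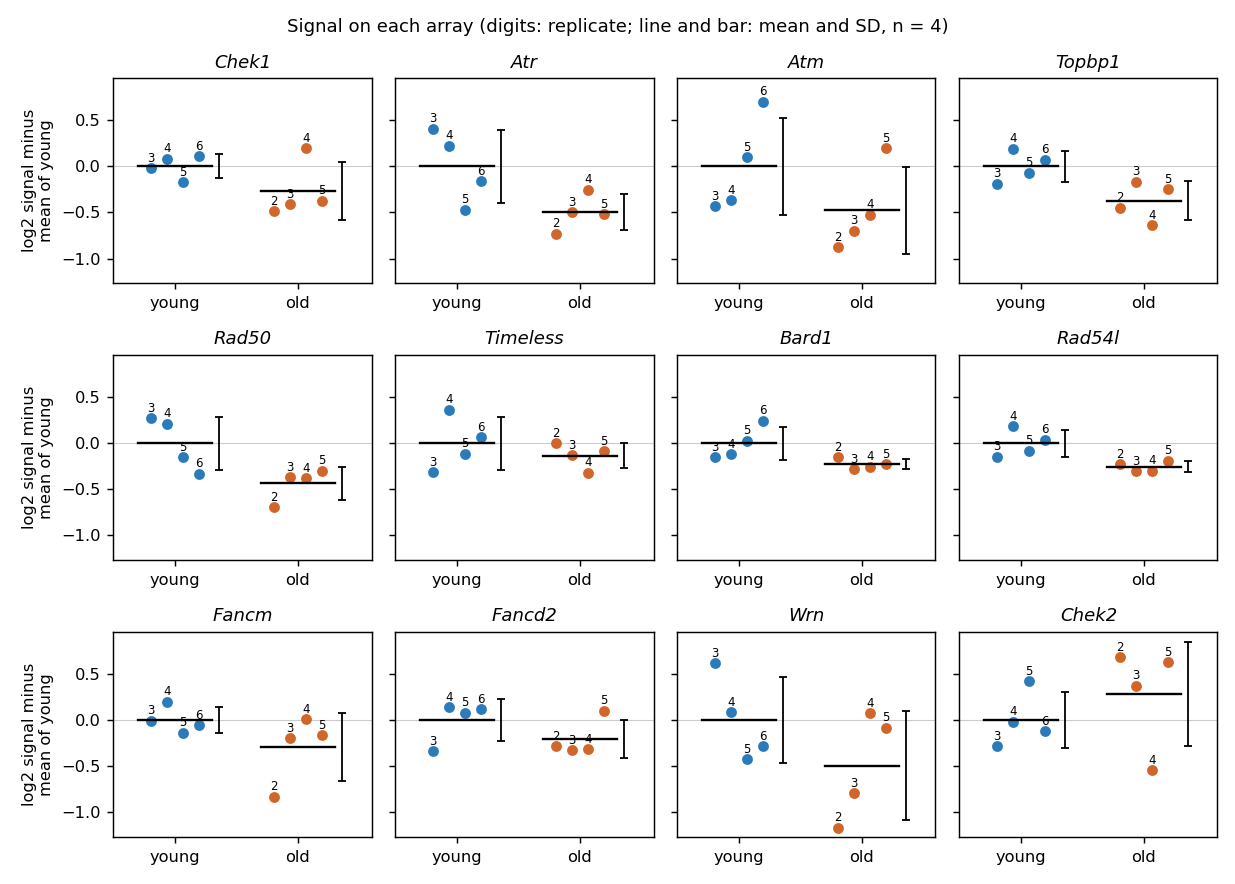
Log2 signal of 12 genes on each array, as the difference from the mean of the young arrays of that gene. Points are arrays with the replicate number, lines the mean and bars the SD (n = 4 per age). Old and young points are separate only for Bard1 and Rad54l, and old replicate 4 lies apart from the other old arrays for Chek1 and Chek2.

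The recombination genes had the lowest median of the larger roles, -0.23 over 12 genes, of which 9 were lower by mean in old mice. Rad54l, a motor protein that remodels joints between DNA molecules, gave 1.59, 1.92, 1.65 and 1.77 in young and 1.51, 1.43, 1.44 and 1.55 in old mice. All old arrays lay below all young arrays, with means of 1.73 ± 0.15 (SD, n = 4) and 1.48 ± 0.06 (SD, n = 4). The fitted difference was -0.25 (SE 0.16, 95% interval -0.61 to 0.11, unadjusted p = 0.146, limma adjusted p = 0.986), or 1.19-fold lower. The two-sided exact permutation test gave p = 0.0286, the smallest that 4 against 4 arrays can give, before any correction for the 46 genes. Arrays that do not overlap always give this p. The gene was taken up for its lack of overlap, so the p adds no support. Bard1, the partner of BRCA1, gave 1.856, 1.88, 2.03 and 2.25 in young and 1.855, 1.73, 1.75 and 1.78 in old mice (chr1:71074294-71074353, minus strand). Old replicate 2 and young replicate 3 were nearly equal, so the separation of the ages rested on a gap far below the spread of either. The log2 fold change of Bard1 was -0.23 (SE 0.17, limma adjusted p = 0.998), and its 2 further probes gave -0.19 and -0.13 with overlapping arrays. Its exact permutation p, 0.0286, was likewise fixed by the lack of overlap.

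The other recombination genes were closer to no difference or more widely spread. Brca1 lay at 0.13 with a 95% interval from -0.63 to 0.90, and Brca2 at -0.21. The Brca1 probe was dim, with means of -4.02 in young and -3.89 in old mice. The lowest signals well above background lay between -5.24 and -4.39 on the arrays. Palb2, which joins the BRCA proteins, lay at -0.13 and was the only gene whose tested probes differed in sign, the further probe giving 0.05. The helicase Brip1 lay at -0.31, Rad54b at -0.38, and the strand exchange mediators Rad51c, Xrcc3 and Xrcc2 at -0.24, -0.24 and 0.20. Dmc1 lay at -0.39, on values near the background. Each of these genes had an adjusted p of 0.986 or more (limma).

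The 8 genes of the Fanconi core showed no common sign, with 4 lower and 4 higher and a median of 0.00. Fancm, the DNA translocase that anchors the core complex, had the smallest p of them. It gave -1.23, -1.02, -1.36 and -1.28 in young and -2.05, -1.42, -1.21 and -1.38 in old mice, a fitted difference of -0.29 (SE 0.21, 95% interval -0.77 to 0.18, limma adjusted p = 0.998). Old replicate 2 stood far below the other arrays, and without it the difference was -0.12. Fancg, Fancb and Fanca lay at -0.16, -0.06 and -0.06, and the ubiquitin ligase Fancl, Fancc, Fance and Fancf lay at 0.06, 0.15, 0.16 and 0.21. Fancd2, the substrate of the core complex, gave -1.90, -1.43, -1.48 and -1.45 in young and -1.85, -1.89, -1.88 and -1.46 in old mice. Each age held 1 array that lay with the other age, young replicate 3 and old replicate 5. The log2 fold change of Fancd2 was -0.21 (SE 0.19, 95% interval -0.63 to 0.22, limma adjusted p = 0.998), and that of its partner Fanci was -0.13.

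Of the 7 nucleases and helicases that resolve junctions and unhook crosslinks, 6 were lower by mean in old mice. Wrn, the helicase mutated in Werner syndrome, gave -0.57, -1.10, -1.61 and -1.47 in young and -2.35, -1.98, -1.11 and -1.27 in old mice (chr8:34346300-34346359, minus strand). Old replicates 2 and 3 lay below all young arrays and old replicates 4 and 5 inside the young range. The difference came to -0.49 (SE 0.33, 95% interval -1.23 to 0.24, limma adjusted p = 0.998). At a further Wrn probe no array was well above background. The helicase Blm lay at -0.20, its partners Rmi1 and Top3a at -0.17 and -0.11, the nuclease subunit Eme1 at -0.11 and the scaffold Slx4 at -0.03. Mus81, the catalytic partner of Eme1, lay at 0.25. The young arrays of Mus81 gave 0.10 in replicate 3 and 0.997 to 1.11 in the other 3.

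Old replicates 2 and 4 took opposite ends at several of these probes, so the position of probes along their transcripts was examined as a measure of how far labelling reached from the 3′ end. Over 1229 transcripts with tested probes at least 1500 bases apart, the difference between the upstream and the downstream probe was taken on each array and centred on its mean over the 8 arrays. Its median was 0.10, 0.01, 0.07 and -0.13 in young and -0.28, -0.10, 0.25 and 0.05 in old mice. The old arrays thus held both the lowest (replicate 2) and the highest value (replicate 4), and the ages overlapped. Across the 8 arrays Pearson's r with this measure was 0.89 for Brip1, 0.82 for Rad51c, 0.76 for Wrn, 0.70 for Fancm and 0.58 for Chek1, given as a description over arrays that share the same labelling. Their probes begin at transcript base 259 for Brip1, 3034 for Rad51c, 4868 for Wrn, 6900 for Fancm and 3336 for Chek1. Distance from the 3′ end was not worked out, so r describes likeness to the measure and not the place of a probe. Of the 46 genes, 3 had an r above 0.7 (6.52%), against 9.59% of all tested genes. As many ran the other way, with an r of -0.83 for Fance, -0.81 for Trp53bp1 and -0.79 for Palb2, and the median r was -0.16 for the group and -0.06 for all tested genes. At the Atm probe printed 10 times, old replicate 2 was likewise lowest and old replicate 4 highest. The part of this measure in the differences between ages was not tested.

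**Figure D4:**
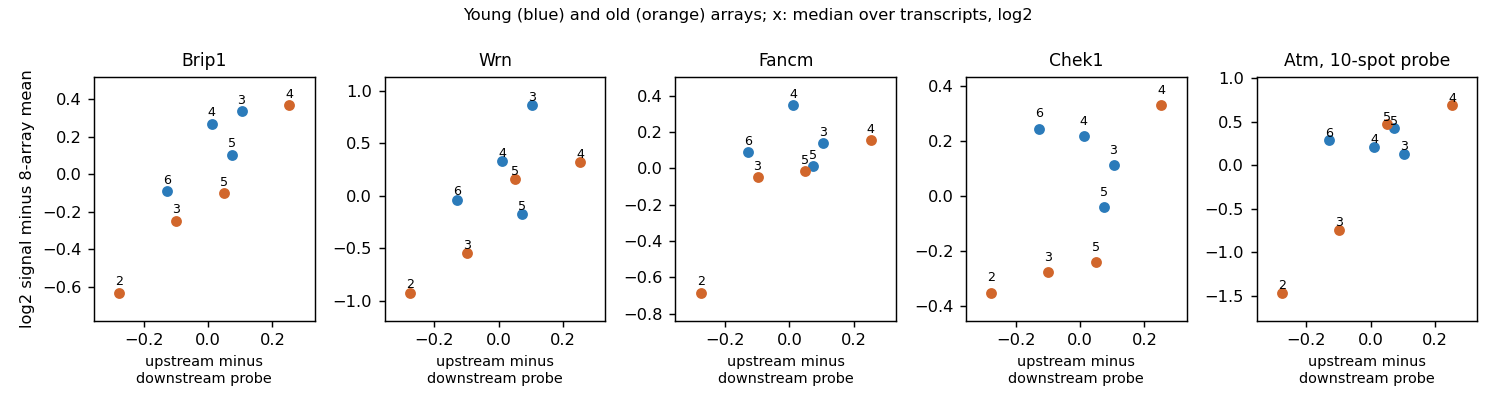
Log2 signal of Brip1, Wrn, Fancm, Chek1 and the Atm probe printed 10 times, minus the mean over 8 arrays, against the median difference between upstream and downstream probes of 1229 transcripts on each array (log2, centred). Points are young (blue) and old (orange) arrays with the replicate number. Old replicate 2, at -0.28 on the x axis, is the lowest array in every panel, and old replicate 4, at 0.25, is the highest for Brip1, Chek1 and Atm, while young replicates are higher for Wrn and Fancm.

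The hybridizations were split over 2 slides that held 2 young and 2 old arrays apiece, and the differences were uneven between the slides. Slide 1 held young replicates 5 and 6 with old replicates 3 and 5, and slide 2 held young replicates 3 and 4 with old replicates 2 and 4. The median log2 fold change of the 46 genes was -0.03 within slide 1 and -0.19 within slide 2, while that of all tested genes was -0.07 and 0.06. Atr had a log2 fold change of -0.19 within slide 1 and -0.81 within slide 2, and Rad50 of -0.09 and -0.78. For Atm the order was turned, with -0.65 within slide 1 and -0.30 within slide 2. Bard1 had -0.39 and -0.07, and Rad54l was nearly even at -0.22 and -0.28. With the slide as a block, Atr alone of the 46 genes (2.17%) had an unadjusted p under 0.05, against 6.58% of all tested genes. Its adjusted p there was 0.747 (limma).

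The tendency to lower means also rested on single arrays, and the count of genes below 0 depended on the scaling. The median value of the 46 genes, each centred on its mean over the arrays, was -0.02, 0.24, -0.05 and 0.03 on the young and 0.06, -0.01, -0.16 and -0.02 on the old arrays. Young replicate 4 was the highest and old replicate 4 the lowest, and the other 6 arrays lay between -0.05 and 0.06 with the ages mixed. Without young replicate 4 the median log2 fold change of the genes was -0.05 and without old replicate 4 it was -0.06. With each array shifted to its median in place of the 75th percentile, the median of all tested genes moved to 0.10 and that of these genes to -0.01. There 24 genes were lower and 22 higher, while 34.4% of all tested genes were lower. Either scaling shifts all genes of an array by the same amount, so the position of these genes relative to all tested genes could not change. The distance was -0.12, and 31 of the 46 genes lay below the median of all tested genes. That both scalings give these values adds no support.

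Cell cycle genes were read beside the group because many of its genes are expressed with DNA replication. The S phase list, 20 genes of DNA replication, nucleotide supply and entry into S phase, had a median log2 fold change of -0.09 and the G2/M list, 17 tested genes of mitosis, one of 0.01. At an unadjusted p under 0.05, 0 of the S phase genes passed and 1 of the G2/M genes (5.88%), against 6.62% of all tested genes. The 1 was the kinase Aurkb (-0.44, limma adjusted p = 0.673). The centred S phase median was -0.27, 0.21, 0.05 and 0.16 on the young and -0.02, -0.14, -0.07 and 0.04 on the old arrays. Young replicate 3 was the lowest and young replicate 4 the highest, so that the young arrays enclosed the old ones. Over the 8 arrays Pearson's r with this S phase median was 0.87 for Fancd2, 0.83 for Timeless, 0.73 for Rad54l and 0.71 for Fanci. These were the 4 of 46 genes (8.70%) above 0.7, against 3.46% of all tested genes, and the median r was 0.19 for the group and 0.00 for all genes. The likeness was not particular to S phase. With the G2/M median r was 0.79 for Fancd2, 0.85 for Timeless, 0.67 for Rad54l and 0.75 for Fanci. There the median r was 0.24 for the group and -0.02 for all tested genes. As the arrays are few and share one scaling, these values describe the 8 arrays only.

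**Figure D5:**
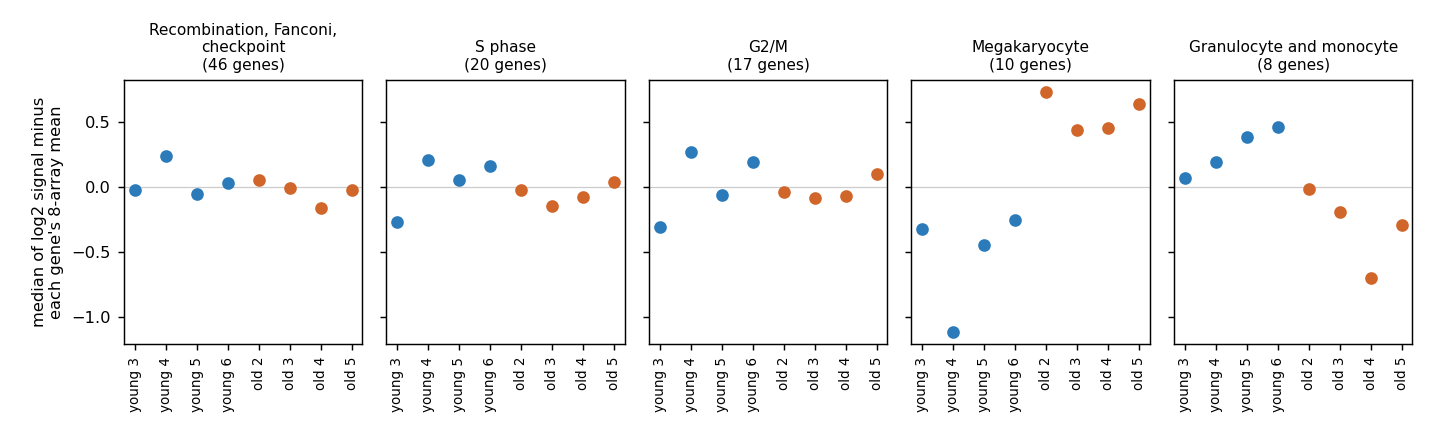
Median, per array, of the log2 signal of each gene minus its mean over 8 arrays, for the 46 recombination, Fanconi and checkpoint genes, the S phase and G2/M lists and 2 lists of cell type markers. Points are young (blue) and old (orange) arrays. Ages overlap in the first 3 panels, while old arrays are higher for all megakaryocyte medians (0.44 to 0.73 against -1.11 to -0.25) and lower for granulocyte and monocyte medians.

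Markers of 8 cell types or gates were read in the same fit. All 10 megakaryocyte markers had a higher mean in old CMPs with an unadjusted p under 0.05, with a median log2 fold change of 1.17, and 1 of them, Gp9, was called (1.21, limma adjusted p = 0.0327). All 8 granulocyte and monocyte markers had a lower mean, 5 of them at an unadjusted p under 0.05, with a median of -0.58. The centred medians of these 8 genes ran from 0.07 to 0.46 on the young and from -0.70 to -0.02 on the old arrays. Neutrophil markers did not separate the ages, and 3 of 5 were tested, as Ltf and Ngp were not well above background on enough arrays. Of 9 lymphoid markers 5 were tested, all with lower means and none at an unadjusted p under 0.05, and Pax5, Ebf1, Cd3g and Rag1 were left out as too dim. Erythroid markers were split, with 3 lower and 4 higher (2 at an unadjusted p under 0.05), and so were stem cell markers, with 3 lower and 3 higher (1 at such a p). Endothelial markers had 1 lower and 3 higher (1 at such a p). Of the 6 tested gate genes 5 had a lower mean, with a median of -0.42 and 1 at such a p, Ly6a. The gate list pools markers sorted as present, such as Kit and Cd34, with Ly6a, sorted as absent. Its median therefore does not describe how well the cells met the gate. In such bulk samples fewer cells of a type and less RNA per cell cannot be told apart, and the part of the cell mixture in the values of the 46 genes was not tested.

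The other genes of these pathways were read from a list of 55 names, of which 51 were tested. None was called, and their median log2 fold change was 0.00, with 26 lower and 25 higher. At an unadjusted p under 0.05, 1 was higher and 2 were lower in old mice, 5.88% of the list against 6.62% of all tested genes. Xrcc5, which encodes the Ku80 subunit of end joining, had a log2 fold change of 0.82 (SE 0.21, limma adjusted p = 0.249), with all old above all young arrays. Rbbp8, which encodes the resection factor CtIP, had -0.64 (limma adjusted p = 0.613) with all old below all young arrays, and the polymerase Polq had -0.59 (limma adjusted p = 0.699). The damage-induced Cdk inhibitor Cdkn1a had 0.23 (limma adjusted p = 0.998). Of the Fanconi partners 6 of 7 had a higher mean in old mice, with a median of 0.15. Clspn, the array's name for claspin, which the list spells Claspn, was not counted as a member and had -0.21 (limma adjusted p = 0.998).

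Promoters were compared for a feature that the choice of genes did not use. RefSeq promoter sequences of the build GRCm38.p6, from 250 bases before to 50 bases after the start, were found for 36 of the 46 genes, 39 promoters in all. E2F-like letters were searched on both strands as TTCGCGC, as the variant TTGGCGC and as the variant TTCCCGC, and at least 1 of them stood in 20 of the 39 promoters (51.3%), against 8.07% of all 32851 promoters of the table and 12.8% of the 13665 promoters of genes tested here. E2F factors are known to drive genes of DNA replication in cycling cells. The letters CCAAT, the core of NF-Y sites, stood in 21 of 39 (53.8%) against 37.7% of the promoters of tested genes. The letters TTTGAA, those of the CHR element of genes expressed late in the cycle, stood in 3 of 39 (7.69%) against 12.7%. The 18 genes with E2F-like letters had a median log2 fold change of -0.19, with 13 lower in old mice, and the 18 genes without them had -0.04, with 11 lower. The 10 genes for which no promoter was found had -0.13, with 7 lower. Each group held values of either sign, and the difference between the groups was not tested.

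Short windows of 5 of these promoters are printed to show the letters in place, for genes that take part at different steps, with the E2F-like letters or their reverse complement in capitals. Bard1 and Brca2 act in recombination, Topbp1 and Chek2 in the checkpoint and Fancm in the Fanconi core. Each is written 5′ to 3′ in the direction of the gene.
Bard1, chr1:71103154-71103200, minus strand: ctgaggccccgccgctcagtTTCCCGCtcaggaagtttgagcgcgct
Brca2, chr5:150522433-150522479, plus strand: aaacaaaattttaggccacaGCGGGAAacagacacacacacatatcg
Topbp1, chr9:103305175-103305221, plus strand: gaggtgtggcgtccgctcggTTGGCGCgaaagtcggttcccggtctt
Chek2, chr5:110839811-110839857, plus strand: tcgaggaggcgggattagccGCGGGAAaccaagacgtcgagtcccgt
Fancm, chr12:65075476-65075522, plus strand: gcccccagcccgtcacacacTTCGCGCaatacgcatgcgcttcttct
The letters begin 208 bases before the start in Bard1, 168 in Brca2, 132 in Topbp1 and 152 in Chek2. In Topbp1 the letters TTCGCGC on the opposite strand overlap those shown, and Fancm holds a further match, TTCCCGC, 54 bases before the start. No match says that a factor binds there, and Atr, Rad54l and Timeless, among others, had none of these E2F-like letters in their windows.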

How the data were processed

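RNA of sorted CMPs was labelled with 1 dye and hybridized to 8 arrays, 4 young and 4 old, grouped by the sample titles. The study's text gives 3 mice per age, each analyzed on its own, without naming arrays, so none was left out. With 4 arrays per age it is not given in the sources used here which mouse each came from, and p-values measure the spread between these samples. The deposited scanner output (Agilent Feature Extraction 10.7.3.1) gives each spot's intensity on a linear scale, background-corrected by that software. The authors also deposited a table of log2 values, scaled by the 75th percentile and then median-centred over all samples, used as an alternative only. Probe coordinates are those of mm9.

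From the intensities of 59305 non-control spots, each signal was put on the log2 scale and shifted by its array's 75th percentile, outlier spots (141 to 230 per array) were left out and spots of a probe averaged. Probes had to stand well above background on 4 arrays or more, which 33472 of 55681 did. They were tested with lmFit and eBayes of limma 3.58.1 under R 4.3.3, and p-values were adjusted after Benjamini-Hochberg. A gene was called at an adjusted p under 0.05 and at least 1.5-fold, by its tested probe with the highest mean. Tests were two-sided. Array data have no depth, and precision depends on how many arrays there are. The step was checked on simulated data. A gene of the pathway list is not reported here. The members, roles and lists were chosen with earlier results of these data known.

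Genes described in depth were those with non-overlapping arrays, an unadjusted p under 0.05 or an absolute log2 fold change of at least 0.58, those with probes of opposite sign at such a p, Chek1, Atr, Atm and the smallest p of each role. Topbp1, Chek2, Brip1, Rad52, Xrcc5, Rbbp8 and Polq were singled out after their values were seen, as was the measure of probe position. Alternatives were normexp (offset 50), quantile and median scaling, the authors' table, other filters, saturated spots, probe means, the methods' t-test, robust variances with an intensity trend, weighted arrays, a block of the replicate number or of the slide, each slide, and each array left out.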

Additional observations from a re-analysis of the deposited data

Results flagged for a closer look

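Single arrays lay apart from the other 3 of their age in 6 of the 92 sets of 4 arrays examined (46 genes in 2 ages), by a gap larger than 0.829 of the range of the 4 values. Chance flags about 1 in 20 such sets. Chek1 was highest on old replicate 4, at -2.33, with the other old arrays between -3.01 and -2.90. Dmc1 was highest on old replicate 3, at -3.86 against -4.70 to -4.59, near the background. Fancd2 was lowest on young replicate 3, at -1.90 against -1.48 to -1.43, and highest on old replicate 5, at -1.46 against -1.89 to -1.85. Fance and Mus81 were lowest on young replicate 3, at 3.29 against 3.89 to 3.97 and at 0.10 against 0.997 to 1.11. Young replicate 3 accounted for 3 of the 6, and it was also the array with the lowest S phase median, -0.27.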

How the results depend on the processing

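No gene of the group was called in either direction under any of the 17 alternatives or with any of the 8 arrays left out. With the adjusted t-test and within either slide 0 of all tested genes were called, so the count for the group was fixed there. Under the other alternatives between 10 (replicate block) and 792 (t-test without adjustment) of all tested genes were called. With an array left out 19 to 34 were. Of the 46 genes, 25 kept the sign of their mean difference throughout, and 21 did not: 15 within 1 slide, 12 under another alternative and 11 with an array left out, in sets that overlap. Among the genes described in depth, Rad52 changed sign, to -0.046 with the replicate block and -0.10 within slide 2. The count of genes at an unadjusted p under 0.05, 0 in the reported fit, moved to 3 lower with normexp, 2 lower with quantile normalization, 2 lower among probes well above background on all 8 arrays, 1 lower with those on all arrays of an age, 2 lower with the methods' t-test (with or without adjustment), 3 lower with trend and robust variances, 4 lower and 1 higher with array weights, 1 lower with the slide as a block and 2 lower within slide 2. The cause was not tested. Of all tested genes, between 3.89% and 11.9% passed in these fits. Leaving out 1 array gave 0 to 3 lower and 0 to 1 higher: 3 lower without young replicate 5, 3 lower and 1 higher without old replicate 4, and 1 lower without young replicates 3 or 6 or old replicate 5. Of all tested genes 6.82% passed without young replicate 5 and 9.70% without old replicate 4, against 6.52% and 8.70% of the group. The median log2 fold change ran from -0.19 to -0.01 over the alternatives, and from -0.15 to -0.05 with an array left out.

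With the replicate number as a block, over the 6 arrays with numbers in both ages, 0 genes passed in either direction and the median was -0.14. Same-numbered arrays deviated together only weakly (correlations -0.09, -0.14 and 0.15), so the numbers were not taken as pairs. Signal over background limits 4 probes, 2 of Dmc1 and 1 each of Wrn and Fanca, which were too dim to test, and the tested Dmc1 probe, which was above background on 5 arrays. The Brca1 probe was also dim, though well above background on every array.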
